A study of Mus musculus with 4 samples.

Results

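The type I interferon induced antiviral genes described here are 38 genes listed by symbol. They are Isg15, the Ifit, Oas and interferon-inducible Ifi200 families, the cytosolic RNA sensors and other genes that cells switch on after interferon reaches them. The list was chosen with earlier results of these data known, so it is not independent of them. All 38 were found among the 31053 features of the count tables. They were followed across 4 droplet libraries of mouse TC-1 tumours and across cell classes gated by marker transcripts. TC-1 is a transplantable mouse lung epithelial tumour line. Wild-type mice, strain labelled C57/bl6, carried 300000 TC-1 cells under the skin and received either cisplatin, a DNA-crosslinking drug, at 6 mg/kg or PBS, as 1 intraperitoneal dose once the tumour measured 40 mm2. Cisplatin tumours were taken on day 1, day 3 or day 7 and gave 1 library each. The PBS library carries no day, and a label of it reads no treatment. The number of mice behind each library was not given.

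The sort was set for innate lymphoid cells (CD45+, lineage-negative, CD90+ and CD127+), and 15000 cells were loaded per library. The transcripts differed from that label. C1qa, a macrophage gene, had a UMI (a counted molecule) in 92.7 to 98.5% of the kept cells of each library. Thy1, which encodes CD90, had a UMI in 4.24% of kept cells in PBS, 15.1% on day 1, 16.4% on day 3 and 9.17% on day 7. Cells that passed a macrophage gate (7 marker genes, at least 1% of a cell's UMIs) were 81.3% of kept cells in PBS, 71.4% on day 1, 47.2% on day 3 and 76.6% on day 7. A tumour-like gate on keratin and other epithelial genes took 0 cells in every library, so no value for tumour-like cells is given. The kept cells numbered 7425 in PBS, 6841 on day 1, 4715 on day 3 and 2705 on day 7, with medians of 5039 to 8769 UMIs. The libraries shared 4 to 32 barcodes per pair.

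Type I interferons (interferon alpha and beta) bind a receptor of Ifnar1 and Ifnar2 on nearly all cells, and the kinases Jak1 and Tyk2 then activate a transcription factor complex that includes Stat2 and Irf9. It binds the interferon-stimulated response element and turns on a large set of genes. Their products sense viral nucleic acid, block entry, degrade or trap RNA, deplete nucleotides or damp the signal again. Interferon gamma, made by T and NK cells, acts through a different receptor and induces part of the same set. In tumours these genes are used as a readout of interferon reaching a cell.

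Promoter windows (250 bases before to 50 after the gene's start, RefSeq, build GRCm38.p6) were available for 30 of the 38 genes. The core of the response element was searched as GAAA, any 2 bases, then GAAA, on both strands, overlapping matches allowed. It was present in a window of 18 of the 30 genes (60%), against 1079 of all 27025 genes with a window (3.99%). A gene with several windows counted if any of them held it. With a C added at the 3' end the counts were 12 of 30 (40%) and 255 of 27025 (0.944%). Below are Isg15 and the 3 Ifit genes that recur in the results, with Samhd1 as a member whose window does not hold it. Capitals mark the motif on either strand (on the other strand it reads TTTC, any 2 bases, then TTTC).
Isg15, chr4:156200769-156201068, minus strand, 3 overlapping matches: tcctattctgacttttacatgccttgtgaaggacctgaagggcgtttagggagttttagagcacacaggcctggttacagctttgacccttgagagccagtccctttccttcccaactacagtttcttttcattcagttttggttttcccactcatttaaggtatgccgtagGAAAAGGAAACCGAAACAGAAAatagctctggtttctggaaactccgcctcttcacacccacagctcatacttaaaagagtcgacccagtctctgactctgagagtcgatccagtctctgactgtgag
Ifit1, chr19:34640639-34640938, plus strand, 2 matches: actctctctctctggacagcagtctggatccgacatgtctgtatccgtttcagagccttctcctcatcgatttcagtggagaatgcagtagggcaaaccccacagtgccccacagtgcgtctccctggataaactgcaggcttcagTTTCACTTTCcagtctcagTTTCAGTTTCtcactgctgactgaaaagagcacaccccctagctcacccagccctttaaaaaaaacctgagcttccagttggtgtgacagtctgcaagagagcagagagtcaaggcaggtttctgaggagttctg
Ifit3, chr19:34583279-34583578, plus strand, 2 matches: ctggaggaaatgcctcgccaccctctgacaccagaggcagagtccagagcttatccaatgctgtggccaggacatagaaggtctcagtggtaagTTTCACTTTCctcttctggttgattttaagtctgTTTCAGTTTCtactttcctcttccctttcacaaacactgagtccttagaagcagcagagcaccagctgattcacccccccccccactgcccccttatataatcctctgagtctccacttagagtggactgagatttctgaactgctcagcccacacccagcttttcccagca
Ifit3b, chr19:34607707-34608006, plus strand, 2 matches: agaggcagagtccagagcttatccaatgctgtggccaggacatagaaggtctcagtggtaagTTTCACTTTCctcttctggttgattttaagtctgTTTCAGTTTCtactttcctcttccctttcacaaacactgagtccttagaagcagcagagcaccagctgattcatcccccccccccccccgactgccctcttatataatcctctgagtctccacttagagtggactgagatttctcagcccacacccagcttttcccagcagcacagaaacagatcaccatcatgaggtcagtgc
Samhd1, chr2:157135047-157135346, minus strand, 0 matches: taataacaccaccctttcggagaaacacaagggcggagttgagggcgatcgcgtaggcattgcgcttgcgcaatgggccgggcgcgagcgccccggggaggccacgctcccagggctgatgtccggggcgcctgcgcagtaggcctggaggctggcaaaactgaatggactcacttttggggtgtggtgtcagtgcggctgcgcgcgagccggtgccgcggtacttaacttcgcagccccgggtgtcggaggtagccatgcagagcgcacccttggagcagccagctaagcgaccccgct
A match is a run of letters, not evidence that a factor was bound. The Ifit3 and Ifit3b windows, aligned end to end, matched at 259 of 340 alignment columns (76.2%), a total that includes columns with a gap. The windows start at different points of a shared sequence, so gaps at their ends lower this share. The other members with no motif in any available window were Ifit2, Ifi44, Oasl1, Oasl2, Xaf1, Ifi35, Isg20, Cmpk2, Ifi209, Ifi47 and Herc6.

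The members lie in clusters. In mm10, all 5 Ifit genes sit on chromosome 19 between 34550694 and 34650009, and the 5 Ifi200-family genes on chromosome 1 between 173566283 and 174031810. The 5 Oas and Oasl genes sit on chromosome 5 between 114896936 and 120907521. Close copies matter for counting, since the libraries read transcript 3' ends. In the last 500 bases of their transcripts, 79.2% of the 50-base words of Ifi205 also occur in Ifi211 or Mndal, 63.4% of those of Ifi209 occur in another gene, and 56.1% of those of Oas1a occur in Oas1g. Phf11b shared 42.6%, Ifi213 18.7%, Ifit3 14.9% and Ifi208 14.4% of such words with other genes. The counts of these genes, and of Ifi203 and Ifi47, which overlap Mndal and Olfr56 on the same strand, are uncertain to that extent.

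Across all kept cells, the antiviral genes were high on day 3 after cisplatin and near their PBS level on day 1 and, for most, on day 7. Their summed level was 4200.1 CPM (UMIs of these genes scaled to 1000000 UMIs of the library) in PBS, 4372 on day 1, 14018 on day 3 and 4770.2 on day 7. A few abundant genes carry this sum. In PBS, Ifi27l2a held 1721 CPM of it, Ifitm3 846 and Bst2 400.1. On day 3 they held 2660, 3646 and 886 CPM in that order. Summed levels here and below therefore mostly follow such genes, while the counts of called members weigh each gene equally. A gene was called higher or lower when its CPM differed by at least 2-fold between 2 libraries with a 95% counting interval that excluded no difference. Each condition is 1 library, so no test was possible, and such intervals cover counting error only, not differences between mice, tumours or sorts. The 3 comparisons with PBS share the PBS library.

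On day 3, 37 of the 38 members were higher than in PBS, with a median log2 ratio of 2.55. Of all genes with enough counts, 11.7% were called higher, with a median of -0.04. On day 1, 2 of 38 members were higher (Ifi205 and Ifi209), with a median of 0.38, below the 9.74% of all genes called. On day 7, 15 of 38 were higher, with a median of 0.61, against 12.9% of all genes. With TMM scaling the counts were 1 on day 1 and 9 on day 7. Day 3 over day 1, 37 of 38 members were higher (4.87% of all genes). Day 7 over day 3, 36 of 38 were lower (11.5% of all genes).

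**Figure D1:**
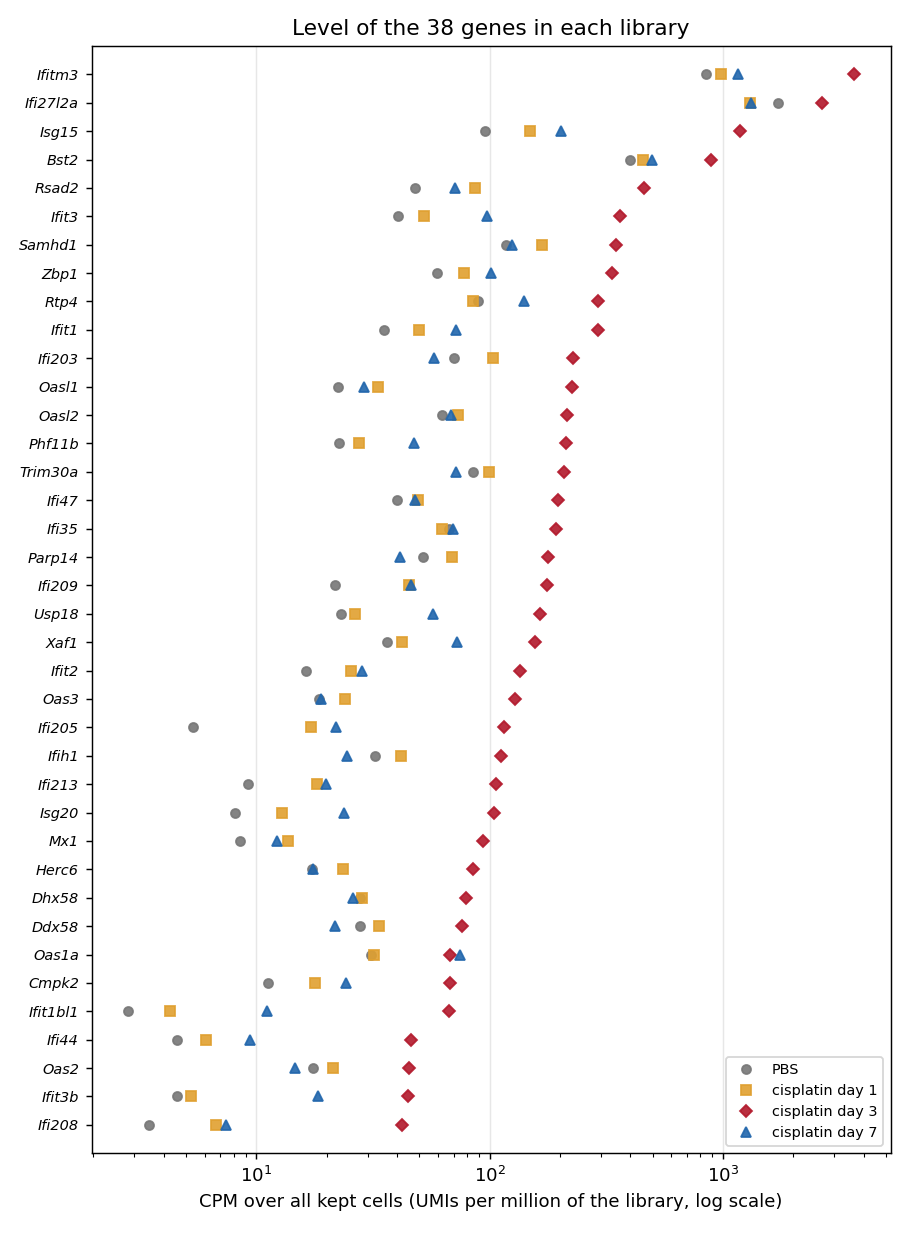
Level of each of the 38 antiviral genes in the 4 libraries, over all kept cells, in CPM on a log axis. Each point is 1 gene in 1 library. The day 3 points lie highest for 37 of the genes, the exception being Oas1a, at 74.7 CPM on day 7 and 67.7 CPM on day 3.

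The plot of levels by library shows day 3 as the highest library in genes of very different abundance. Ifitm3, which blocks virus entry from endosomes, had 846 CPM in PBS, 979 on day 1, 3646 on day 3 and 1159 on day 7. Ifit1bl1, a relative of the RNA-binding Ifit1, had 2.82 CPM in PBS, 4.26 on day 1, 67.2 on day 3 and 11.1 on day 7. In both, day 3 stood apart from the other 3 libraries.

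The largest day 3 ratios belonged to Ifit1bl1, at a log2 ratio of 4.58 (95% counting interval 4.33 to 4.83), and to Ifi205, a member of the DNA-binding Ifi200 family, at 4.44 (4.26 to 4.62). Ifi205 had 5.34 CPM in PBS, 17.2 on day 1, 116 on day 3 and 21.9 on day 7, and was the member furthest above PBS on day 1, at 1.69. Isg20, an RNA exonuclease, had 8.07 CPM in PBS, 12.9 on day 1, 104 on day 3 and 23.8 on day 7. Day 3 was again the high library, and the day 7 level of both genes stayed above PBS, with log2 ratios of 2.04 for Ifi205 and 1.56 for Isg20. The day 3 log2 ratios of the next members, Isg15, Ifi208, Ifi213, Mx1 and Ifi44, were 3.34 to 3.62. Ifi208 had 3.46 CPM in PBS, 6.68 on day 1, 42.2 on day 3 and 7.40 on day 7. Ifi213 had 9.21 CPM in PBS, 18.2 on day 1, 107 on day 3 and 19.9 on day 7. Both belong to the Ifi200 family and were called on day 7 as well, at 1.10 and 1.11. Ifi44 had 4.55 CPM in PBS, 6.11 on day 1, 46.2 on day 3 and 9.35 on day 7. Mx1, a GTPase that traps viral ribonucleoproteins and whose allele is defective in most laboratory strains, had 8.52 CPM in PBS, 13.7 on day 1, 93.2 on day 3 and 12.3 on day 7.

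At the other end, Ifi27l2a, a small interferon-induced membrane protein, was the only member not called on day 3. It had 1721 CPM in PBS, 1307 on day 1, 2660 on day 3 and 1323 on day 7, a day 3 log2 ratio of 0.63 (0.61 to 0.64). Bst2 (tetherin), which holds budding virus at the cell surface, had 400.1 CPM in PBS, 456 on day 1, 886 on day 3 and 497 on day 7. Its day 3 log2 ratio was 1.15. These genes were abundant in PBS already. Oas1a, which makes the 2-5A messenger that activates RNase L, had 30.9 CPM in PBS, 31.8 on day 1, 67.7 on day 3 and 74.7 on day 7. Its levels on day 3 and day 7 both stood above those in PBS and on day 1. Trim30a, a ubiquitin ligase, had 84.7 CPM in PBS, 99.5 on day 1, 208 on day 3 and 71.5 on day 7. Oas2 had 17.5 CPM in PBS, 21.3 on day 1, 45.3 on day 3 and 14.6 on day 7. These 2 completed the 5 lowest, with day 3 log2 ratios of 1.30 for Trim30a and 1.37 for Oas2, and both were lowest on day 7.

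The share of cells passing each gate changed with the libraries. Cells passing a monocyte gate (at least 3 UMIs of Ly6c2 and Plac8 together, and at least 2 of the 5 monocyte markers seen) were 0.404% of kept cells in PBS, 1.21% on day 1, 16.8% on day 3 and 1.15% on day 7. On day 3 they held 28.9% of the members' UMIs, and macrophage-like cells held 42.5%. Ly6c2 in the gate itself responds to interferon in mice, so these shares are not independent of the members' level. Outside the monocyte gate, 36 of 38 members were higher on day 3 than in PBS (11.4% of all genes). The remaining results were therefore read within each class.

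Within macrophage-like cells the order of the libraries was the same. The members' summed level was 4557 CPM in PBS, 4577 on day 1, 12403 on day 3 and 5215 on day 7, over 6039, 4887, 2226 and 2071 cells in that order. On day 3, 36 of 38 members were higher than in PBS (7.55% of all genes), with a median log2 ratio of 2.25, and the counting interval of all 38 lay above 0. The 2 that were not called were Ifi27l2a at 0.15 and Trim30a at 0.93. On day 1, 1 of 38 was higher (5.04% of all genes), which was Ifi205 at 1.52, while the counting interval lay above 0 for 27 members and below 0 for 2, Ifi27l2a and Ifi35. On day 7, 14 of 38 were higher (6.0% of all genes), with a median of 0.74, against a median of -0.13 over all genes. The day 7 interval lay above 0 for 27 members and below 0 for 6 (Ifi27l2a, Ifih1, Ddx58, Ifi203, Trim30a and Parp14). For counts by interval alone, here and below, no share over all genes is given. They are therefore not a result about the members against other genes. Day 3 over day 1, 30 of 38 were higher (3.5% of all genes).

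**Figure D2:**
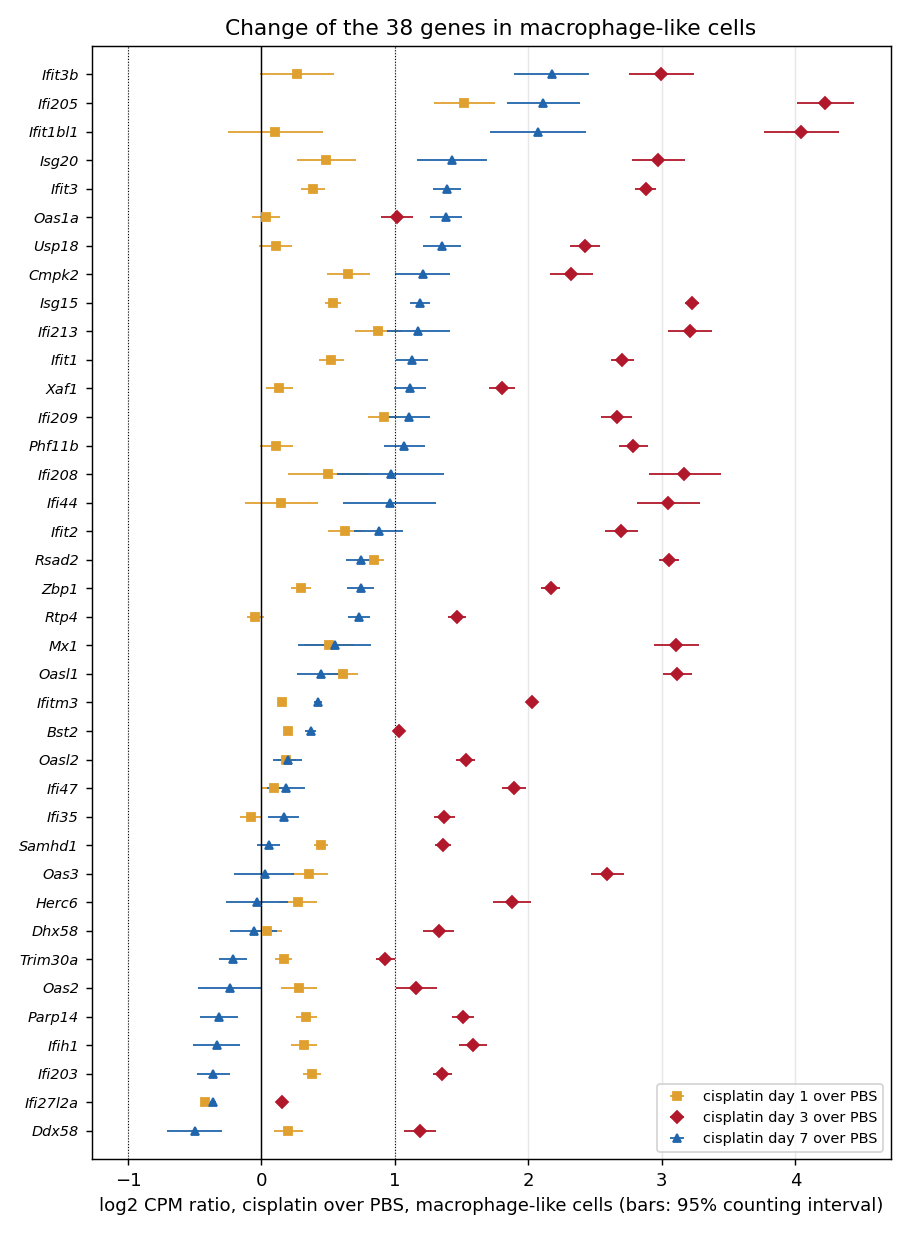
Log2 ratio of CPM in macrophage-like cells on day 1, day 3 and day 7 over PBS for each of the 38 genes, ordered by the day 7 ratio. Bars are 95% counting intervals and dotted lines mark a 2-fold difference. The day 3 points lie to the right for nearly all genes, while the day 7 points run from -0.50 for Ddx58 to 2.17 for Ifit3b.

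The sensors of viral nucleic acid rose on day 3 and were not called on day 7. All 4 (Ifih1, Ddx58, Dhx58 and Zbp1) were higher on day 3 in macrophage-like cells, with a median log2 ratio of 1.46. On day 7 none of the 4 was called and their median was -0.20. Ifih1 (MDA5, a sensor of long double-stranded RNA) had 36.1 CPM in PBS, 45.0 on day 1, 108 on day 3 and 28.6 on day 7. Ddx58 (RIG-I, a sensor of RNA with a 5' triphosphate) had 30.3 CPM in PBS, 34.8 on day 1, 69.1 on day 3 and 21.5 on day 7. For both genes the day 7 library was the lowest, with log2 ratios to PBS of -0.33 and -0.50 whose counting intervals lay below 0, under the 2-fold limit. Zbp1, which binds Z-form nucleic acid and can start necroptosis, had 65.0 CPM in PBS, 79.9 on day 1, 292 on day 3 and 109 on day 7.

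The Ifit family, whose proteins bind foreign RNA ends, was higher on day 3 and largely remained called on day 7. All 5 were higher on day 3, with a median log2 ratio of 2.88, and 4 of 5 were still higher on day 7, with a median of 1.39. Ifit3, a scaffold partner of Ifit1 in human cells, had 44.5 CPM in PBS, 58.1 on day 1, 327 on day 3 and 117 on day 7. Ifit3b had 4.87 CPM in PBS, 5.84 on day 1, 38.8 on day 3 and 22.0 on day 7, and its day 7 log2 ratio of 2.17 was the highest of all members. The member not called on day 7 was Ifit2, at 0.88. Ifit1 had 37.5 CPM in PBS, 53.8 on day 1, 244 on day 3 and 81.9 on day 7.

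The 3 genes of the Isg15 pathway were higher on day 3, and 2 of them on day 7. Isg15 is a ubiquitin-like protein that is attached to other proteins, Herc6 is the main ligase for it in mice, and Usp18 removes it and also blocks signalling at Ifnar2. Isg15 had 95.4 CPM in PBS, 138 on day 1, 894 on day 3 and 218 on day 7 in macrophage-like cells. Usp18 had 24.7 CPM in PBS, 26.6 on day 1, 132 on day 3 and 63.1 on day 7. Both were called higher on day 7, with log2 ratios of 1.19 and 1.35. Herc6 was higher on day 3 at 1.88 and stood at -0.03 on day 7, where its ratio over all kept cells was 0.02, both with intervals that held 0.

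The Oas family covered a wide range. All 5 were higher on day 3, from 1.01 for Oas1a to 3.12 for Oasl1, which in mice restrains translation of Irf7. On day 7 only Oas1a was called. It had 33.2 CPM in PBS, 34.0 on day 1, 67.1 on day 3 and 86.6 on day 7, and it was the only member whose day 7 interval lay above day 3, with a log2 ratio of 0.37 (0.24 to 0.50). Day 7 over day 3, the other 37 members had intervals below 0, and 32 of the 38 were called lower (10.1% of all genes). Because Oas1a shares most of its 3' words with Oas1g, the reads of these 2 genes may not be separable.

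The Ifi200 family had the highest median of the groups on day 3. Its 5 genes, Ifi203, Ifi205, Ifi208, Ifi209 and Ifi213, had a median log2 ratio of 3.17, and all 5 were higher. On day 7, 3 of 5 were higher. Ifi203 stood below its PBS level on day 7 by less than the 2-fold limit, with 77.9 CPM in PBS, 101 on day 1, 199 on day 3 and 60.7 on day 7.

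The enzymes of nucleotide and RNA metabolism were all higher on day 3, with a median log2 ratio of 2.65 over 4 genes. Rsad2 (viperin), which makes a chain-terminating nucleotide, had 51.4 CPM in PBS, 92.3 on day 1, 427 on day 3 and 86.4 on day 7. Its neighbour on chromosome 12, the nucleotide kinase Cmpk2, had 12.6 CPM in PBS, 19.7 on day 1, 62.9 on day 3 and 29.1 on day 7. Day 3 was the high library for both, and on day 7 Cmpk2 was called at 1.21 while Rsad2, at 0.75, was not. Samhd1, which destroys nucleotide building blocks, had 121 CPM in PBS, 165 on day 1, 310 on day 3 and 125 on day 7. The 2 membrane proteins Ifitm3 and Bst2 were higher on day 3 and not on day 7.

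The other 10 members range from GTPases (Mx1, Ifi47) to a ribosyltransferase (Parp14) and a PHD finger protein (Phf11b). On day 3, 8 of 10 were higher, with log2 ratios from 0.15 for Ifi27l2a to 3.11 for Mx1. On day 7, 2 of 10 were higher, Xaf1 at 1.12 and Phf11b at 1.07. In all, 6 members had day 7 counting intervals below their PBS level in macrophage-like cells: Ifi27l2a, Ifih1, Ddx58, Ifi203, Trim30a and Parp14, with log2 ratios of -0.50 to -0.21. None of these reached 2-fold.

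Monocyte-gated cells held the highest levels in every library. Their summed level was 13299.6 CPM in PBS (30 cells), 11489.8 on day 1 (83 cells), 25740.5 on day 3 (790 cells) and 14162 on day 7 (31 cells). That was 2.92 times the macrophage-like level in PBS, 2.51 times on day 1, 2.08 times on day 3 and 2.72 times on day 7. Of the 38 members, 33 were highest in this class in PBS, 36 on day 1, 36 on day 3 and 32 on day 7. No share over all genes is given for this ranking. Ly6c2, which defines the gate, itself responds to interferon in mice, so the level of this class is not independent of how it was chosen. Cells that passed both the macrophage and the monocyte gate were counted in this class. Its summed macrophage genes C1qa, C1qb and C1qc stood at 0.412 of the macrophage-like level in PBS and 0.546 on day 1. The ratio was 0.679 on day 3 and 0.634 on day 7, so the class also held much macrophage RNA. Monocyte over macrophage, 26 of 38 members were higher in PBS (4.05% of all genes), 29 on day 1 (4.56%), 22 on day 3 (2.72%) and 32 on day 7 (4.64%).

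**Figure D3:**
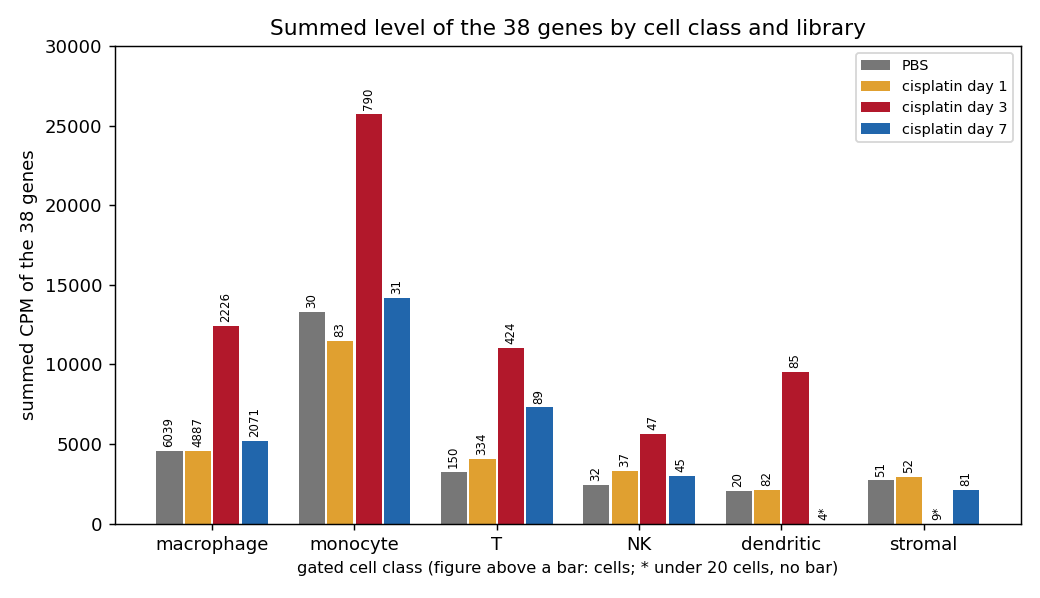
Summed CPM of the 38 genes in each cell class and library, with the number of cells above each bar. A star marks classes with fewer than 20 cells, drawn without a bar. Monocyte-gated cells are highest in each library, and day 3 is the highest library in each class that has a day 3 bar.

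The bars by class show the day 3 level in each of the 5 classes with at least 20 cells that day. Within monocyte-gated cells 30 of 38 members were higher on day 3 than in PBS (3.67% of all genes), with a median log2 ratio of 1.43. On day 1, 4 of the 37 members with enough counts were higher (3.92% of all genes), and on day 7, 7 of 29 were higher (10.2%) and 1 was lower (7.9%). Isg15 had 867 CPM in PBS, 1036 on day 1, 2515 on day 3 and 958 on day 7. Usp18 had 14.3 CPM in PBS (2 UMIs), 81.8 on day 1 (61 UMIs), 352 on day 3 (1780 UMIs) and 178 on day 7 (30 UMIs). The 8 members not called on day 3 were Ifi27l2a, Ifitm3, Samhd1, Zbp1, Oas1a, Ddx58, Ifi35 and Ifi203, with log2 ratios of -0.12 to 0.66. Ifi203 was the member called lower on day 7, with 119 CPM on day 7 (20 UMIs) and 351 CPM in PBS (49 UMIs).

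In T cells the genes were high on day 3, and their summed level on day 7 was 2.25 times that in PBS, against 1.14 times in macrophage-like cells. The summed level was 3233 CPM in PBS (150 cells), 4047 on day 1 (334 cells), 11024 on day 3 (424 cells) and 7289.95 on day 7 (89 cells). Ifi27l2a alone held 1677 CPM of the T cell sum in PBS and 3035 on day 7. In macrophage-like cells this gene held 1927 CPM in PBS and 1497 on day 7. On day 3, 37 of 38 members were higher than in PBS (4.85% of all genes), with a median log2 ratio of 2.15. On day 7, 13 of the 21 members with enough counts were higher (8.74% of all genes), with a median of 1.44. Day 7 over day 3, 6 of 38 were lower (5.83%), and day 3 over day 1, 33 of 38 were higher (2.77%). The day 7 T cell counts are small, so the number of members that can be called depends on the count minimum, with 20 higher at a minimum of 1 UMI and 2 at 100 UMIs. On day 1, 5 of 31 were higher (3.71%), a count of 2 where cells with over 0.5% macrophage marker UMIs were left out.

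Isg15 in T cells had 84.1 CPM in PBS, 153 on day 1, 804 on day 3 and 429 on day 7, a day 7 log2 ratio of 2.35 (1.76 to 2.97). Ifit1 had 28.9 CPM in PBS, 46.4 on day 1, 330 on day 3 and 238 on day 7. Ifit3 had 5.26 CPM in PBS (2 UMIs), 27.9 on day 1 (45 UMIs), 231 on day 3 (380 UMIs) and 117 on day 7 (27 UMIs), a day 7 log2 ratio of 4.47 with a wide interval (2.48 to 7.59). In all 3 genes the day 3 and day 7 levels were both above those in PBS and on day 1. Mx1 had 0 UMIs in PBS, 10.5 CPM on day 1 (17 UMIs), 42.6 on day 3 (70 UMIs) and 17.3 on day 7 (4 UMIs). Set against a floor of 3 counts in PBS, its day 3 log2 ratio was 2.43, a value that depends on that floor.

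Relative to macrophage-like cells of the same library, the summed T cell level was 0.709 in PBS, 0.884 on day 1, 0.889 on day 3 and 1.40 on day 7. The day 7 value rests in part on Ifi27l2a, at 3035 CPM in T cells and 1497 CPM in macrophage-like cells. The ratio without this gene is not given. On day 7, 15 of 38 members were higher in T cells than in macrophage-like cells (12.0% of all genes) and 2 were lower (8.07%). In PBS the counts were 3 higher (10.3%) and 12 lower (9.53%). On day 1 they were 3 higher (13.2%) and 9 lower (11.4%), and on day 3 they were 1 higher (14.2%) and 6 lower (14.1%). Isg20 was higher in T cells in every library, with 49.9 CPM in T cells and 7.23 CPM in macrophage-like cells in PBS, and 212 CPM in T cells and 19.5 CPM in macrophage-like cells on day 7. Ifitm3 ran the other way, with 889 CPM in T cells and 3474 CPM in macrophage-like cells on day 3. Whether the ratio of the classes differs between day 7 and the other libraries was not tested.

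**Figure D4:**
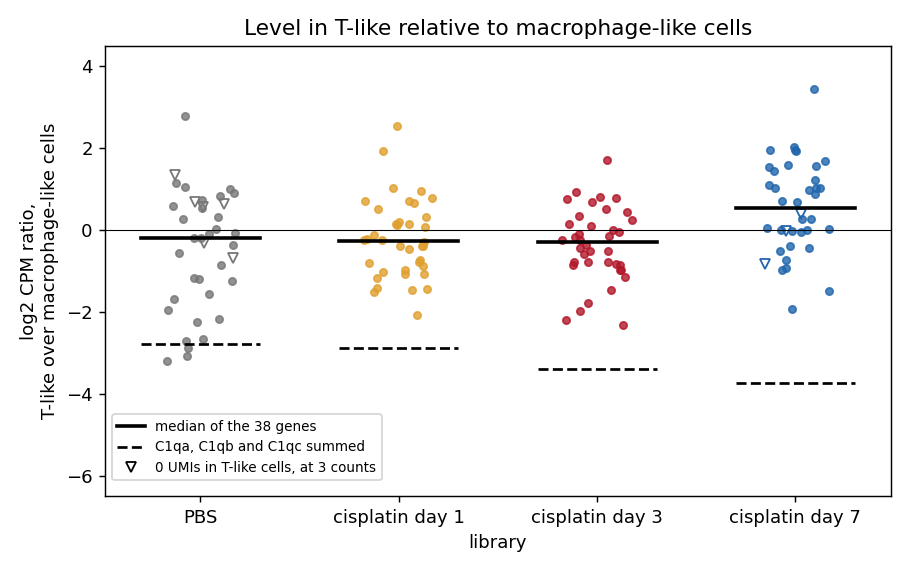
Log2 ratio of CPM in T cells over macrophage-like cells for each of the 38 genes in each library. The solid line is the median of the genes, and the dashed line is the ratio of the summed macrophage genes C1qa, C1qb and C1qc. These are macrophage gate markers, so the gates partly set the dashed line. Open triangles are genes with 0 UMIs in T cells set at 3 counts. The medians are -0.19 in PBS, -0.27 on day 1, -0.30 on day 3 and 0.53 on day 7, above the dashed lines. They include the open triangles, whose place depends on the floor and on T cell depth, so medians of different libraries are not strictly comparable.

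Macrophage transcripts were present in T cell barcodes. The summed C1q genes stood at 0.145 of the macrophage-like level in PBS, 0.136 on day 1, 0.0947 on day 3 and 0.0754 on day 7. The C1q genes are among the 7 markers of the macrophage gate. Cells that passed this gate and a T, NK, dendritic or stromal gate were left out. The gates therefore partly set the C1q ratio, which is not an independent measure of carried-over RNA. The members' summed ratio was higher than the C1q ratio in each of the 4 libraries. Gene by gene, the T cell interval lay above the C1q ratio for 23 of 38 members in PBS and 37 on day 1. It did so for 38 on day 3 and 35 on day 7. In NK cells these counts were 25, 31, 35 and 30 in that order. In dendritic cells they were 14 in PBS, 21 on day 1 and 36 on day 3. In stromal cells they were 13 in PBS, 33 on day 1 and 14 on day 7. The part of carried-over RNA in the members' levels in these classes was not tested.

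Dendritic cells, gated on their own markers, had a summed level of 2052 CPM in PBS (20 cells), 2105 on day 1 (82 cells) and 9533 on day 3 (85 cells). Only 4 cells passed on day 7. On day 3, 22 of 32 members with enough counts were higher than in PBS (3.84% of all genes), and 30 of 32 were higher than on day 1 (4.2%). On day 1, 0 of 15 were higher than in PBS (1.16%). Isg15 had 195 CPM in PBS, 193 on day 1 and 1698 on day 3. Ifit1 had 0 UMIs in PBS, 10.0 CPM on day 1 (6 UMIs) and 240.2 CPM on day 3 (130 UMIs), so day 3 was the only high library of the 3. Dendritic over macrophage, 20 of 38 members were lower (14.1% of all genes) and 4 higher (9.58%) on day 1, and 10 were lower (17.4%) and 1 higher (10.5%) on day 3.

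NK cells were few, 32 in PBS, 37 on day 1, 47 on day 3 and 45 on day 7. Their summed level was 2403 CPM in PBS, 3328 on day 1, 5607 on day 3 and 2968 on day 7. On day 3, 11 of 20 members with enough counts were higher than in PBS (5.8% of all genes), Isg15 among them with 69.2 CPM in PBS (7 UMIs), 179 on day 1 (32 UMIs), 475 on day 3 (108 UMIs) and 139 on day 7 (18 UMIs). On day 1, 1 of 12 was higher (7.9%), and on day 7, 2 of 8 (13.6%). NK over macrophage, 5 of 38 members were higher (5.22% of all genes) and 4 lower (4.94%) in PBS, and 8 were higher (8.09%) and 4 lower (5.71%) on day 1. On day 3, 0 were higher (7.21%) and 18 lower (10.1%), and on day 7, 5 were higher (10.2%) and 6 lower (6.84%).

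Stromal cells (51 in PBS, 52 on day 1 and 81 on day 7) had low levels, with a sum of 2704 CPM in PBS, 2934 on day 1 and 2109 on day 7. Ifitm3 made up most of it, at 1989 CPM in PBS, 1932 on day 1 and 1657 on day 7. Stromal over macrophage, 26 of 38 members were lower in PBS (13.3% of all genes), 30 on day 1 (15.0%) and 37 on day 7 (15.6%). The members higher in stromal cells numbered 1 in PBS (21.5% of all genes), 2 on day 1 (24.5%) and 0 on day 7 (27.8%). On day 7, 3 of 11 members with enough counts were lower in stromal cells than in PBS (6.35%): Isg15 at -1.09, Ifi27l2a at -1.61 and Ifi203 at -2.21. On day 1, 2 of 21 were higher (3.85%), Rsad2 and Ifi47. The 9 stromal cells of day 3 held 1280 member UMIs among 205631 and are not compared.

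The number of members seen in a cell was compared after thinning each cell to 2000 UMIs, which left out 209 to 309 macrophage-like cells per library as too shallow. The median macrophage-like cell held 4 of the 38 genes in PBS, 4 on day 1, 9 on day 3 and 4 on day 7. Cells with at least 10 of the genes were 4.76% in PBS, 6.63% on day 1, 45.8% on day 3 and 10.5% on day 7. Among T cells the share was 1.14% in PBS, 5.86% on day 1, 40.2% on day 3 and 19.1% on day 7, over 88, 307, 376 and 47 cells. Thinning left out 62 T cells in PBS, 27 on day 1, 48 on day 3 and 42 on day 7. Thinned to 1000 UMIs, the T cell shares were 0% in PBS, 1.20% on day 1, 17.6% on day 3 and 6.10% on day 7. Among monocyte-gated cells of day 3 the median was 16 genes and 82.5% of cells held at least 10.

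**Figure D5:**
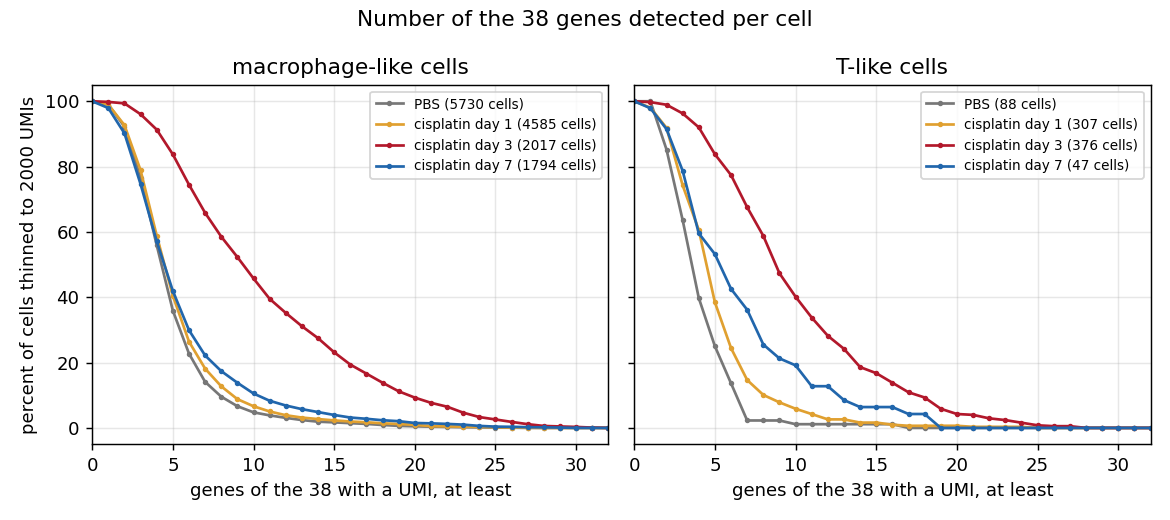
Percent of cells with at least a given number of the 38 genes detected, for macrophage-like cells and T cells thinned to 2000 UMIs, one line per library. At 10 or more genes, the day 3 line is at 45.8% of macrophage-like cells, against 4.76 to 10.5% in the other libraries. In T cells it is at 40.2%, against 19.1% on day 7, 5.86% on day 1 and 1.14% in PBS.

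The 10th percentile of macrophage-like cells was 4 genes on day 3 and 2 in PBS, and the 90th percentile was 19 genes on day 3 and 7 in PBS. An Isg15 UMI was present in 12.6% of thinned macrophage-like cells in PBS, 16.3% on day 1, 58.5% on day 3 (95% Clopper-Pearson interval 56.3 to 60.7) and 20.8% on day 7. Without thinning the shares were 24.99% in PBS, 36.1% on day 1, 78.4% on day 3 and 32.2% on day 7, at median depths of 4988 to 8939 UMIs. No class here is known to lack Isg15. Mast cells were left out of the next comparison. Among the macrophage, monocyte, T, NK, dendritic and stromal classes with at least 20 cells, stromal cells had the lowest Isg15 CPM in PBS, on day 1 and on day 7. Their thinned share was 10.0% in PBS, 13.7% on day 1 and 8.86% on day 7. On day 3 the lowest was NK cells, with a thinned share of 45.2% (29.8 to 61.3), an interval that overlaps that of macrophage-like cells. The part of free RNA in these shares was not tested. Across thinned macrophage-like cells of day 3, the Spearman correlation of a gene with the sum of the other members was 0.68 for Isg15, 0.65 for Ifitm3, 0.56 for Ifit3 and 0.18 for Oas1a, a description over 2017 cells of 1 library that share their depth. The median over genes seen in at least 10% of cells was 0.18 in PBS (12 genes), 0.17 on day 1 (12 genes), 0.36 on day 3 (31 genes) and 0.26 on day 7 (14 genes), and these gene sets differ between libraries.

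Of 52 pathway genes (ligands, receptors, kinases, transcription factors, sensors and inhibitors), 33 had enough counts over all kept cells. On day 3, 12 of 33 were higher (11.7% of all genes) and 0 lower than in PBS. On day 1, 3 were higher (9.74% of all genes) and 1 lower, and on day 7, 1 of 32 was higher (12.9%). The day 1 count of higher genes was near the share over all genes, and the day 7 count was below it. Ifnb1, the interferon beta gene, had 1.26 CPM in PBS (64 UMIs), 0.497 on day 1 (33 UMIs), 3.95 on day 3 (127 UMIs) and 1.43 on day 7 (22 UMIs) over all kept cells. It was called higher on day 3, at a log2 ratio of 1.65, and lower on day 1, at -1.34. The other 18 type I and III interferon genes together had 0 to 7 UMIs per library. Siglech, a marker of plasmacytoid dendritic cells, had 6 UMIs in PBS, 5 on day 1, 0 on day 3 and 0 on day 7.

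Ifng, the interferon gamma gene, had 5.67 CPM in PBS, 17.4 on day 1, 56.3 on day 3 and 6.23 on day 7. It was called higher on day 1, at a log2 ratio of 1.62, and on day 3, at 3.31. The part of either ligand in the members' levels was not tested. The type I receptor genes Ifnar1 and Ifnar2 were not called against PBS on any day, Ifnar1 at 62.6 CPM in PBS, 81.1 on day 1, 92.3 on day 3 and 65.9 on day 7. Ifnlr1, a type III receptor gene, was called higher on day 1 and on day 3 on low counts, with 10 UMIs in PBS, 28 on day 1, 18 on day 3 and 6 on day 7. Stat2 had 21.1 CPM in PBS, 33.2 on day 1, 98.2 on day 3 and 23.1 on day 7. This transcription factor is interferon-induced itself, and day 3 was its high library as for the members.

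Irf7, which amplifies interferon production, had 116 CPM in PBS, 138 on day 1, 840 on day 3 and 277 on day 7. It was the pathway gene called higher on day 7, at a log2 ratio of 1.25 (1.20 to 1.31). Socs1, an inhibitor of Jak kinases, had 16.1 CPM in PBS, 29.7 on day 1, 74.5 on day 3 and 25.1 on day 7. Irf9, the DNA-binding partner of Stat2, had 39.6 CPM in PBS, 46.1 on day 1, 79.0 on day 3 and 38.2 on day 7, a day 3 log2 ratio of 1.00 that missed the limit. The adaptors Tmem173 (STING) and Mavs and the factor Irf3 were not called, with day 3 log2 ratios of -0.13, -0.44 and -0.15.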

How the data were processed

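Droplet libraries (10x 3' version 3) of sorted TC-1 tumour cells gave 1 table each for PBS and for cisplatin day 1, day 3 and day 7. The authors deposited unnormalised counts of UMIs for every gene in each barcode, whole numbers per the file headers. Per the submitters' processing notes, Cell Ranger 3.1.0, Seurat 3.1.2 and the build mm10 were used, with no role or order stated. The stated depth was 20000 reads per cell. The 38 genes, the cell gates, the pathway list and the named genes were chosen with earlier results of these data known. The counts had the unit that the planned summaries assumed.

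Barcodes were kept from 500 genes upward and up to a mitochondrial UMI share of 10%, and the highest Scrublet scores (scanpy 1.11.5) were removed at 0.8% per 1000 barcodes. The submitters' tables held 10063, 10745, 6264 and 2981 barcodes for PBS, day 1, day 3 and day 7, and kept cells held 15401092 to 66429789 UMIs per library. Gates used marker UMIs. A macrophage-like cell had at least 1% of its UMIs from 7 markers (4 or more of them seen), and a monocyte had at least 3 UMIs of Ly6c2 and Plac8 together and at least 2 of 5 monocyte markers seen. T cells needed at least 4 UMIs, NK cells 3, dendritic cells 3 and stromal cells 4, from at least 2 genes (3 for NK). Cells in 2 or more gates were left out, except that a cell in the macrophage and monocyte gates counted as a monocyte.

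UMIs were summed per library and class and scaled to CPM. Ratios have exact conditional binomial 95% intervals, and shares have Clopper-Pearson intervals. Both cover counting error only. Genes with at least 20 UMIs over 2 libraries entered, a side with 0 UMIs was set to 3 counts per library, and classes with under 20 cells are given as counts. With 1 library per group there was no test. The ratio code was tested on simulated counts. Named in full were the 8 highest and 5 lowest members on day 3 over PBS among those with at least 50 UMIs, 12 set members, and members whose sign in macrophage-like cells differs from that over all kept cells. Alternatives were TMM (edgeR 4.0.16) and DESeq2 1.42.0 scaling, doublets kept, other mitochondrial, UMI, fold and gate limits, all barcodes, and cells outside the monocyte gate. A T and NK gate with at most 0.5% macrophage marker UMIs was added after seeing the data. Python 3.11.15, numpy 2.4.6, scipy 1.17.1, pandas 2.3.3, Biopython 1.88 and R 4.3.3 were used. Gene positions came from GENCODE (mm10). Some items are not reported here.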

Additional observations from a re-analysis of the deposited data

Results flagged for a closer look

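Isg15 on day 7 was called in opposite directions in 2 classes: its log2 ratio to PBS was 1.19 in macrophage-like cells and -1.09 in stromal cells, which rest on 2389 and 30 UMIs on day 7. Ifi203 on day 7 was likewise 1.57 in T cells and -1.56 in monocyte-gated cells, on 54 and 20 UMIs. With 1 library per group these differences between classes were not tested.

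Barcodes that were left out of the comparisons also had their highest summed level on day 3. Those with high mitochondrial share or few genes had a summed level of 7920 CPM on day 3, against 2754 in PBS. Those removed by doublet rank had 15683 CPM on day 3, against 4184 in PBS. Kept cells in 2 or more gates were left out of the class results only. They were 2.21% of kept cells in PBS, 10.4% on day 1, 10.4% on day 3 and 5.66% on day 7. Their summed level was 4131 CPM in PBS, 3992 on day 1, 12463 on day 3 and 4545 on day 7.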

How the results depend on the processing

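Of the counts of members higher or lower and the other main values, 207 alternative values kept their size and 24 moved by over 1.5 times. No called ratio changed its sign under any alternative run. Counts on day 3 over PBS in all kept, macrophage-like and monocyte-gated cells stayed within that limit. For day 1 over PBS in all kept cells (2 members higher), TMM scaling gave 1, DESeq2 scaling 1 and a 1.5-fold limit 11. The TMM count on day 7 was 9 of 38 in place of 15. In macrophage-like cells on day 1 (1), the 1.5-fold limit gave 7. A minimum of 100 UMIs gave 1 for monocytes on day 1 (4), 0 for monocytes on day 7 (7), 2 for T cells on day 1 (5), 2 for T cells on day 7 (13), 0, 2 and 0 for NK cells on day 1, 3 and 7 (1, 11 and 2), 11 for dendritic cells on day 3 over PBS (22), 14 on day 3 over day 1 (30), and 0 for stromal cells on day 1 (2). A minimum of 1 UMI gave 20 for T cells and 5 for NK cells on day 7, and 4 for stromal cells on day 1. On day 1, keeping doublets gave 2 for T, 0 for NK and 4 for stromal cells, a 5% mitochondrial limit gave 3 for T cells, macrophage markers at most 0.5% gave 2 for T cells, and 1 more marker UMI gave 4 for NK cells. The median of all genes moved by -0.13 on day 1 over PBS and by 0.13 on day 3 over day 1 in all kept cells with DESeq2 scaling, by 0.11 in monocytes on day 3 and -0.12 in T cells on day 7 with TMM, and by up to 0.23 in dendritic and -0.17 in NK cells. A higher minimum tests fewer genes; for the other changes the cause was not tested. Small classes and the 89 T cells of day 7 limit the depth. No paired analysis was possible because each group is 1 library. The tumour-like gate gave no values.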

Other observations

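Among T cells split after the values had been seen, those with a Foxp3 UMI, the regulatory T cell factor, had a summed member level of 4012 CPM in PBS (56 cells), 4741 on day 1 (126 cells), 13343 on day 3 (130 cells) and 8858 on day 7 (32 cells). Those with a Cd8a or Cd8b1 UMI had 3095 CPM in PBS (5 cells), 3563 on day 1 (33 cells), 8358 on day 3 (36 cells) and 2847 on day 7 (13 cells). T cells with a UMI of none of these genes were the largest subset. They had 2825 CPM in PBS (88 cells), 3204 on day 1 (166 cells), 10336 on day 3 (244 cells) and 7099 on day 7 (44 cells). Mast cells had a summed level of 603 CPM in PBS (25 cells) and 1412 CPM on day 1 (58 cells), the lowest of the named classes in both libraries. Kept barcodes that passed no gate and held no Ptprc UMI had 3040.5 CPM in PBS, 2854 on day 1, 9135 on day 3 and 2229 on day 7. These are values of single libraries with no test.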
